A study of Mus musculus with 31 samples.

Results

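The mammary gland of AB mice, which carry 1 functional Stat5a allele and 1 functional Stat5b allele in place of 2 of each, was compared between the day of parturition and day 6 of pregnancy. The comparison rests on 5 of the 31 samples listed, 2 AB samples at parturition (taken within 12 hours of delivery) and 3 AB samples at day 6. Each genotype has a single column in each stage's file, the authors' mean over samples. Values therefore come without SD, and differences could be neither checked against replicates nor given a p-value. Genes with at least 1 FPKM, the fragment count of a gene relative to its length and to the sequencing depth, as deposited in either AB column were compared, 12975 of 22609. Next to that limit, Cklf was the lowest kept, at 0.872 FPKM at parturition and 1.00 FPKM at day 6. Dlx5 was the highest left out, at 0.256 and 0.99997 FPKM.

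All animals had a mixed 129SV::FVB/N::C57BL/6 background, and mammary tissue freed of lymph nodes was the source of poly(A) RNA. AB mice (Stat5ab+/null) lack 1 copy of the Stat5ab locus in every cell of the body, so stroma and endocrine organs carry the deletion as well as the epithelium. The glands set beside them were BB (Stat5a-/-, 2 Stat5b alleles), Null (Stat5ab floxed with MMTV-Cre, both genes lost in mammary epithelium) and AABB (4 alleles, wild type or floxed without Cre). BB, Null and AABB each had 2 samples at parturition and 3 at day 6. The A and B genotypes have a single Stat5a or Stat5b allele left. They enter only the scaling, the ranges over columns, the muscle plot and a few values set beside AB. They had 2 and 3 samples at parturition and 3 each at day 6. At day 6 the protocol's 2 mice for each genotype stand beside 3 listed samples. Levels are FPKM scaled across all 12 columns of both stage tables, and the ratio given is the log2 ratio of level + 1, parturition over day 6. A gene was counted as higher or lower at parturition from a 2-fold difference on that scale, which understates the differences of weakly expressed genes. The stages were deposited as separate tables, so each stage ratio is set across tables.

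STAT5A and STAT5B are transcription factors that the prolactin receptor activates through the kinase JAK2 in mammary epithelium. During pregnancy they drive the formation of alveoli, and around delivery, when progesterone is withdrawn, the alveolar cells begin copious milk secretion. Caseins carry calcium and amino acids, alpha-lactalbumin permits lactose synthesis, and milk fat is released as droplets wrapped in cell membrane. STAT5 dimers bind the palindrome TTCNNNGAA, which lies in casein promoters.

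The promoters of Csn1s1, Csn2 and Glycam1 are shown because these genes were among those with the largest stage ratios in AB and the 250 bases before their start hold that palindrome. They are the 5′ to 3′ gene strand from RefSeq on build GRCm38.p6, and capitals mark the palindrome. The motif reads the same on both strands and was searched as TTCNNNGAA. Csn1s1 lies on the plus strand at chr5:87665958-87666207, with the motif 100 to 92 bases before the start. Csn2 lies on the minus strand at chr5:87699426-87699675, with the motif 93 to 85 bases before the start. Glycam1 lies on the minus strand at chr15:103565082-103565331, with the motif 145 to 137 bases before the start.
Csn1s1: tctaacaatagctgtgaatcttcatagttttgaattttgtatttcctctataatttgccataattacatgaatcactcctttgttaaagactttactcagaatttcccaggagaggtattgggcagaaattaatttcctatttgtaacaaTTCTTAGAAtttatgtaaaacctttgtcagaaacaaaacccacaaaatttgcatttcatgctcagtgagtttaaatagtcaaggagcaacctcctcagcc
Csn2: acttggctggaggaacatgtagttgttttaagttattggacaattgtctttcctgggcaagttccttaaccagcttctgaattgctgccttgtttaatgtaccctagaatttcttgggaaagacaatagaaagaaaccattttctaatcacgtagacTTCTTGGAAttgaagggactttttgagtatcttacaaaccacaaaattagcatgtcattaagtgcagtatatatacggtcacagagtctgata
Glycam1: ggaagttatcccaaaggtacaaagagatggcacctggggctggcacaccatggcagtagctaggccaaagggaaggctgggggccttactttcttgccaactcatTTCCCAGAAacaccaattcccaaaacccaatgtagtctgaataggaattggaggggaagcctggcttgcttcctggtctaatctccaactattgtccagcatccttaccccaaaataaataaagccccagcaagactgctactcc
The motif occurred in 7.02% of all 32851 promoters in the table. By gene, it occurred in 8.33% of the 564 genes with a promoter entry that were higher at parturition in AB, in 7.01% of the 884 that were lower, and in 7.22% of the 9181 compared. Of the milk protein lists, 2 of 3 caseins and 1 of 14 whey and other secreted proteins with an entry held it. The windows of Csn1s2a, Wap and Lalba did not hold these letters. Csn1s2b, Csn3 and Btn1a1 had no entry.

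Depth is unknown, since the tables give no counts. FPKM sums were 703160 in the AB column at parturition and 433958 at day 6, and the 10 genes with the most FPKM held 45.9% and 10.5%. Scaling factors were 0.900 and 0.943. Scaling moved stage ratios by 0.07 on the log2 scale in AB and by 0.52 in wild type. The AB column at day 6 stood apart from the other day 6 columns in skeletal muscle transcripts. Its muscle list summed to 9825 scaled FPKM, against 209.9 to 898 in the other genotypes at day 6, and the AB column at parturition summed to 266. In all, 73 genes were at least 4-fold above every other day 6 column in AB, 27 of them muscle list members. The other day 6 columns had 0 to 12 such genes. The list does not hold every muscle gene, and Myom1, Trim63 and Scn4a were among the 73 as well. A further 13 genes were at least 4-fold below every other day 6 column in AB, Glycam1 among them, against 0 to 2 elsewhere. The MHC genes H2-Ea-ps, H2-K2 and H2-Q2 were also among the 13. H2-Ea-ps was 0.00971 in AB at day 6, against 36.5 to 370 in the other genotypes. The 2-fold counts over all genes compared in AB are therefore also given without the genes of both kinds.

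In the AB gland 846 genes were higher at parturition (6.52% of those compared) and 1299 were lower (10%). At 4-fold, 233 were higher (1.80%) and 207 lower (1.60%). With 5 in place of 1 as the added constant, the 2-fold counts were 487 and 634. Without the genes that stood apart in AB at day 6, the 2-fold counts were 835 and 1226, and 138 genes were lower at 4-fold. The median ratio over all genes compared was −0.05. In whole tissue, fewer cells of a type and less RNA per cell cannot be told apart. Counts for gene lists are over the members that passed the 1 FPKM floor, and up to 11 members of a list did not. The plot of AB levels at both stages shows milk protein genes other than Cd36 above the diagonal and muscle, adipocyte and fibroblast genes below it.

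**Figure D1:**
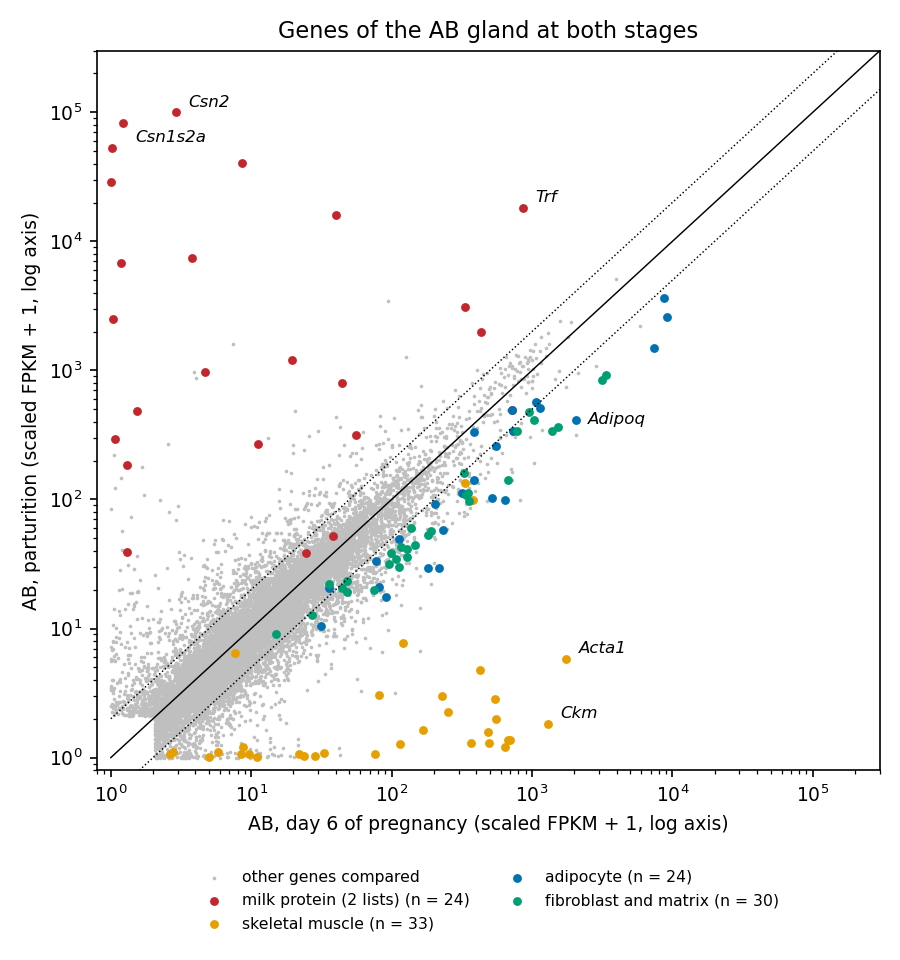
Scaled FPKM + 1 of 12975 genes in the AB gland at parturition (vertical, log axis) and at day 6 (horizontal, log axis), 1 point per gene and 1 mean per stage, with the line of equality and dotted lines at 2-fold. Milk protein genes other than Cd36 (drawn with the adipocyte list) lie above the diagonal, with Csn2 at 101232 against 1.90, and Ckm has the lowest ratio of the muscle genes, at 0.809 against 1291.

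The genes altered in AB mice were read first. Stat5a was 23.8 scaled FPKM at parturition and 13.0 at day 6 in AB, against 73.5 and 31.8 in wild type. Stat5b was 11.7 and 11.4 in AB, against 26.3 and 15.8 in wild type. The stage ratio in AB was 0.82 for Stat5a and 0.03 for Stat5b, both within 2-fold, while in wild type Stat5a had 1.18 and Stat5b 0.70. At parturition the AB column held 32.4% of the wild-type level of Stat5a and 44.3% of that of Stat5b. In BB, which has no functional Stat5a allele, Stat5a was 4.51 and 3.56. RNA of the gland as a whole includes stroma, so these levels do not count functional alleles in epithelium.

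All 5 casein genes were higher at parturition in AB, with a median log2 ratio of 12.19. Csn2, Csn1s2a, Csn1s1 and Csn3 were among the 10 genes with the most FPKM in the gland at parturition, and none was at day 6. Csn2, beta-casein, was 101232 scaled FPKM at parturition and 1.90 at day 6, a ratio of 15.09. Csn1s2a, a calcium-sensitive casein, was 82397 and 0.220, a ratio of 16.04. Csn1s1, alpha-S1-casein, was 40139 and 7.62, a ratio of 12.19. Csn3, kappa-casein, which keeps the micelle in solution, was already at 39.1 at day 6 and stood at 16115 at parturition. It had a ratio of 8.65, close to the 8.56 of wild type. For all 5 the level at day 6 was far below that at parturition, and Csn3 had the highest level of them at day 6.

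Wild-type glands reached higher casein levels at both stages. Their stage ratios were smaller by at least 2-fold for Csn2, Csn1s2a and Csn1s1, near that of AB for Csn3 and larger for Csn1s2b. Csn2 was 253048 at parturition and 2802 at day 6 in wild type, a ratio of 6.50. Csn1s2a was 214448 and 1133 there, and Csn1s1 114987 and 1087. The AB stage ratio stood above the wild-type ratio by 8.59 for Csn2, 8.48 for Csn1s2a and 5.46 for Csn1s1. This was not particular to AB. At day 6 the casein list summed to 48.9 scaled FPKM in AB, 68.5 in BB and 5222 in wild type. It summed to 69.6 in Null, 58.9 in A and 15.5 in B. The median stage ratio of the list was 10.04 in BB and 7.56 in wild type. The AB level at parturition was 40.0% of wild type for Csn2, 38.4% for Csn1s2a and 21.3% for Csn3. Csn1s2b differed from the rest. It was 294 at parturition and 0.0631 at day 6 in AB, against 17794 and 1.18 in wild type, so AB reached 1.65% of the wild-type level. In BB it was 29.6 at parturition. None of these differences between genotypes could be tested, because the columns are means.

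Of 19 whey and other secreted milk protein genes, 16 were higher at parturition in AB and none was lower, with a median ratio of 4.90. Wap, whey acidic protein, was 28613 at parturition and listed at 0 at day 6 in AB, against 143518 and 13.2 in wild type. A listed 0 may be a failed estimate, since Hmgcs1, a sterol synthesis gene, was also listed at 0 in both AB columns. Glycam1, a secreted mucin, was 52832 and 0.0240 in AB. Its other day 6 columns lay between 13.1 and 77.3, so its ratio in AB (15.65) rests on a day 6 level below that of every other genotype. Lalba, alpha-lactalbumin, was 6840.2 and 0.188, a ratio of 12.49. Spp1, osteopontin, was 7462 and 2.80, a ratio of 10.94. Lao1, an L-amino acid oxidase, was 2493 and 0.0440, a ratio of 11.22. Trf, transferrin, was already abundant at day 6, at 862, and reached 18089.5 at parturition. The bile salt-stimulated lipase gene Cel was 484 and 0.528, with a ratio of 8.31. Within 2-fold were Cd36 (−0.55), Wfdc12 (0.47) and Saa3 (0.64).

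Both milk protein lists together held 46.9% of all FPKM of the AB gland at parturition and 0.564% at day 6, against 68.4% and 2.12% in wild type. In BB they held 43.9% at parturition, and in Null 1.10%. At day 6, 9 of the 24 genes were below 1 scaled FPKM in AB and 1 was in wild type. At parturition 13 of the 24 were at least 2-fold lower in AB than in wild type, and at day 6 18 were. The same share over all genes compared was not computed, so these counts have no background. The 15 genes drawn in the plot of milk protein genes were picked by hand from the 24. For 12 of the 15, AB lay closer to wild type at parturition than at day 6. Near ties were Csn3 (log2 difference −2.23 at parturition and −2.32 at day 6) and Pigr (−1.28 and −1.36). The 3 that did not were Csn1s2b, Trf and Lao1. The rest of the 24 were not counted in this way, and neither were all genes compared, so this count has no background.

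**Figure D2:**
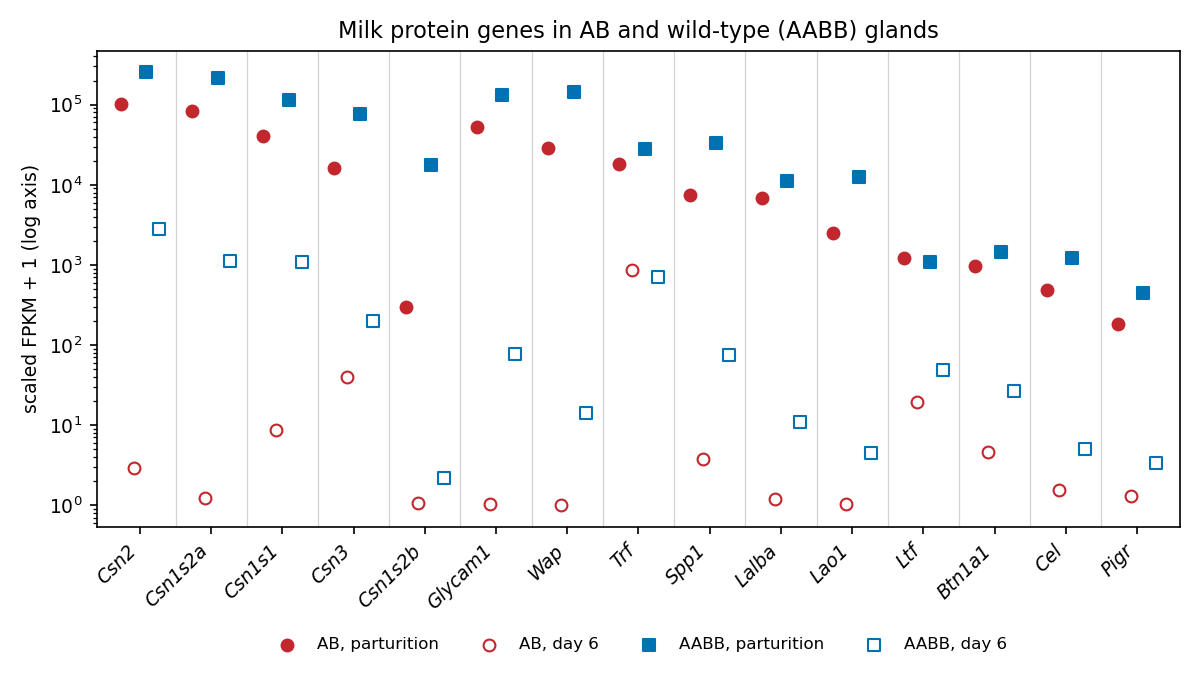
Scaled FPKM + 1 (log axis) of 15 milk protein genes in AB (circles) and wild-type AABB glands (squares), filled for parturition and open for day 6, 1 mean per point. Csn2 in AB stands at 101232 at parturition and 1.90 at day 6, against 253048 and 2802 in wild type.

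Genes that supply lactose, minerals and amino acids to milk were higher in part. Of 13 lactose synthesis and glucose supply genes 3 were higher and 1 lower (median 0.74). B4galt1, the catalytic partner of alpha-lactalbumin, was 222 at parturition and 41.2 at day 6, a ratio of 2.40. Slc2a1, the glucose transporter GLUT1, had a ratio of 1.74, while Pgm2 had −1.43. Of 16 calcium and mineral transport genes 9 were higher and 1 lower (median 1.23). Slc34a2, a phosphate cotransporter, was 146 and 0.190, a ratio of 6.95. Atp2c2, a Golgi calcium and manganese pump, had a ratio of 4.93. Slc39a8, a zinc and manganese carrier, was 43.9 and 4.46 (3.04), and Orai1, the store-operated calcium channel, 59.7 and 9.92 (2.48). Atp2b2, the plasma membrane pump that moves calcium into milk, was 6.91 and 0.0426 in AB, against 65.7 and 0.0551 in wild type. The AB stage ratio of Atp2b2 was 2.92 and the wild-type ratio 5.98. Of 15 amino acid transporter genes 6 were higher and 3 lower (median 0.64), with Slc1a4 at 2.22, Slc7a5 at 1.80 and Slc1a5 at −1.87.

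Fatty acid synthesis genes went in both directions in AB. Of 19 de novo synthesis genes 7 were lower and 5 higher, with a median ratio of −0.79, whereas in wild type 8 were higher and none lower (median 0.65). In BB the count was 3 higher and 9 lower (median −0.57). Fasn, fatty acid synthase, was 315 at parturition and 2056 at day 6 in AB, a ratio of −2.70, against 847 and 1451 in wild type, a ratio of −0.78. Scd1, the stearoyl-CoA desaturase, was 2201 and 5896 in AB, a ratio of −1.42, against 6529.6 and 3912 in wild type, a ratio of 0.74. Acss2, which makes acetyl-CoA from acetate, was lower in AB as well (−2.63), as was Slc25a1, the mitochondrial citrate carrier (−1.75). Slc25a1 was named after its values were seen. Among the 5 higher were Olah, the thioesterase that ends synthesis at medium chain length, at 220.3 and 0.0478 (7.72), and the desaturase gene Fads2 (2.06). Another was Aldoc (3.60), an aldolase of glycolysis that the list also holds. The AB stage ratio lay at least 2-fold below the wild-type ratio for 15 of the 19 genes and above it for none, against 7.76% and 8.24% of all genes compared. Adipocytes express most of these enzymes too, and the adipocyte list summed to 11421 scaled FPKM at parturition and 34861 at day 6 in AB, against 12467 and 25510 in wild type. Its part in the result was not tested.

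Of 21 genes for fatty acid uptake, triglyceride and the lipid droplet, 6 were higher and 5 lower (median 0.23). Fabp3, a fatty acid carrier, was 1613 at parturition and 6.44 at day 6 in AB, against 15201 and 74.4 in wild type. The ratio was 7.76 in AB and 7.65 in wild type. Btn1a1 (butyrophilin, of the milk fat globule membrane) was higher, at 975 and 3.66, as were Xdh, at a ratio of 2.50, and Cidea, at 3.35. Dgat2, which adds the last fatty acid of a triglyceride, was lower at −3.06. Lpl, the lipase that frees fatty acids from plasma lipoproteins, was 508 and 1138 in AB, a ratio of −1.16, against 1586 and 652 in wild type, a ratio of 1.28. Lpl was named after its values were seen. Of 18 cholesterol synthesis genes 5 were higher and none lower (median 0.53), with Mvd at 1.65 and Sqle at 1.36.

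Many genes of the secretory machinery and of epithelium were higher in AB at parturition. Of 31 genes of the secretory pathway and the unfolded protein response, 15 were higher and none lower, with a median of 1.00. Creld2, a chaperone of the endoplasmic reticulum, had a ratio of 2.05, and Sdf2l1 of 1.90. Manf, a secreted stress response protein, was 114 and 30.0, a ratio of 1.89. Xbp1, the transcription factor that expands the secretory compartment, was 535 and 160.2, a ratio of 1.73. The wild-type median was 1.03, with 16 higher and 1 lower. Of 16 tight junction genes 10 were higher and 1 lower in AB (median 1.02), led by Cldn8 (2.83), Cgn (2.18) and Marveld3 (2.17). In wild type 4 were higher and 4 lower (median 0.10), and in BB 5 were higher and 2 lower (median 0.51).

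Of 24 luminal epithelial markers 17 were higher and none lower in AB (median 1.40), whereas in wild type 3 were higher and 6 lower (median −0.08) and in BB 7 were higher. The list summed to 3397 scaled FPKM at parturition and 1213 at day 6 in AB, against 3364 and 2495 in wild type. The sums at parturition therefore lay close together and those at day 6 did not. At day 6 the AB sum was below that of every other column (1512 to 2495). A higher sum at parturition was not particular to AB. It was 3636.5 and 1736 in BB, 3123 and 1512 in A, and 3058 and 1662 in B. In Null it was 1797 and 2061. Muc1, a mucin of the apical membrane, was 269 and 10.2 in AB. The epithelial serine protease gene St14 had a ratio of 1.95 and Cd24a of 1.91. The luminal keratin gene Krt18 was 493 and 154 in AB, against 297 and 359.9 in wild type. Kit, a receptor of luminal progenitors, was 62.3 and 32.4 in AB, within 2-fold, against 6.54 and 54.2 in wild type, where it was lower at parturition (−2.87). Krt18 and Kit were named after their values were seen. Lists of other tissues moved against the luminal list, since adipocyte and muscle markers held 1.46% and 0.0340% of FPKM at parturition and 7.57% and 2.13% at day 6, and their part in the result was not tested. Of 19 basal and myoepithelial markers 5 were higher and 1 lower (median 0.47). The smooth muscle genes Myh11 (2.05), Cnn1 (1.63) and Acta2 (1.31), markers of the contractile myoepithelium, were higher, and Sparc, a matrix gene that fibroblasts also express, was lower (−1.40).

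In the prolactin and STAT5 signalling list 3 of 25 genes were higher and 4 lower (median 0.03). Elf5, the transcription factor that specifies alveolar cells, was 479.8 at parturition and 19.5 at day 6 in AB, a ratio of 4.55, against 1126 and 107 in wild type, a ratio of 3.38. Id2, a regulator needed for alveolar growth, was 143 and 28.5, a ratio of 2.29. Tnfsf11, which encodes RANKL, the paracrine signal downstream of progesterone, was 0.258 and 20.6, a ratio of −4.10. Its receptor gene Tnfrsf11a moved the other way, at 17.2 and 3.14 (2.14). The growth factor gene Igf1 was lower (−1.99). Igf2 was 5.72 and 37.4 (−2.52), but it is 1 of the 73 genes above every other day 6 column in AB, and those other columns lay between 1.23 and 6.14. Cish, the feedback inhibitor induced by STAT5, and Prlr, the prolactin receptor, were within 2-fold, at 0.54 and 0.10, and were named after their values were seen.

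Early pregnancy hormone response genes were mostly lower, 10 of 18, with 2 higher and a median of −1.10. Calca, the calcitonin gene that progesterone induces, was 2.16 and 105, a ratio of −5.06. Areg, the EGF family ligand of ductal growth, was 2.26 and 59.7, a ratio of −4.22. Esr1, the estrogen receptor, had a ratio of −1.44. The wild-type median was −1.67. Of 21 Wnt and R-spondin genes 1 was higher and 7 lower (median −0.79). Rspo1 was 3.73 and 11.3 in AB, a ratio of −1.38, against 1.57 and 99.1 in wild type, a ratio of −5.29. Axin2, a target gene of Wnt signalling, was 1.43 and 4.90 (−1.28). Of 20 EGF and IGF axis genes 4 were higher and 6 lower, with the binding protein gene Igfbp4 at 145 and 460.1 (−1.66).

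None of 33 cell cycle genes was past 2-fold in either direction (median −0.39). Mki67, a marker of dividing cells, had the highest ratio of the list, at 5.00 and 2.02 (0.99). The list as a whole went the other way, with a sum of 279 scaled FPKM at parturition and 340 at day 6. Of 28 STAT3 and involution genes 8 were higher and 4 lower (median 0.26). Lcn2, an iron-binding acute phase protein, was 3428 and 93.5 (5.18), and Clu, clusterin, had a ratio of 3.32. Saa2 was 969 and 2.93 and Saa1 had a ratio of 7.76. The 2 genes are near-identical copies, so the split of reads between them is uncertain. Of 26 interferon response genes 2 were higher and 3 lower (median −0.43), with Ifi44 at 1.27 and Ifit3 at −1.19. Of 37 cytosolic ribosomal protein genes and of 30 mitochondrial genes none was past 2-fold, with medians of 0.34 and −0.45. Of 16 clock genes 1 was higher, Hlf (2.61).

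Skeletal muscle genes formed the lower extreme of the comparison. Of 33 muscle markers compared 32 were lower at parturition and none higher, with a median of −4.92, and the 12 lowest genes with characterised names were all muscle markers. The median was −7.38 with an added constant of 0.1 and −3.60 with one of 5. Without the 27 members that stood above every other day 6 column in AB it was −1.86. The other 9 of the 42 markers in the tables were not compared, and with no filter the median was −4.16. Ckm, muscle creatine kinase, was 0.809 at parturition and 1291 at day 6 in AB, a ratio of −9.48. Tnnc2, fast troponin C, was 0.212 and 645, and Myh4, a fast myosin heavy chain, 0.309 and 491. In wild type Ckm was 49.6 and 17.8, and the list median was 0.45. The median was −1.46 in BB and 2.66 in Null. Of the 73 genes that stood above every other day 6 column in AB, all 73 were lower at parturition. The choice of these genes largely fixed this, since a high AB level at day 6 lowers the stage ratio. The list summed to 266 scaled FPKM at parturition and 9825 at day 6 in AB, against 543 and 325 in wild type. Muscle is no cell type of the mammary parenchyma, and the source of these transcripts was not tested. The plot of muscle genes by column shows AB at day 6 above the other 5 day 6 columns.

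**Figure D3:**
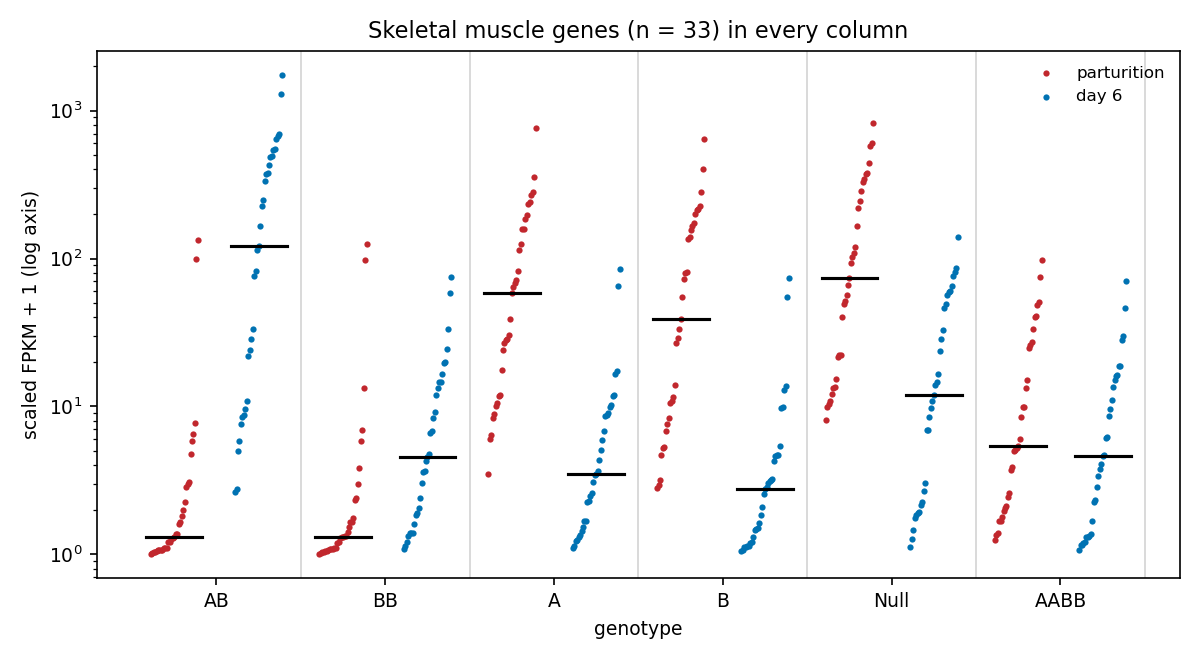
Scaled FPKM + 1 (log axis) of the 33 skeletal muscle genes compared, sorted within each of 12 columns (6 genotypes, parturition left of day 6), with the median as a bar. AB at day 6 stands above the other day 6 columns, and Null, A and B at parturition stand above AB at parturition. Sums are over all 42 markers measured, not only the 33 drawn. They were 9825 in AB at day 6 and 209.9 to 898 in the other day 6 columns. At parturition they were 5687 in Null, 3685 in A, 3432 in B and 266 in AB.

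Adipocyte and stromal genes were lower at parturition. Of 24 adipocyte markers 20 were lower and none higher in AB (median −1.48), and in wild type the median was −2.14. The adipocyte list held 1.46% of all FPKM at parturition and 7.57% at day 6 in AB. Rbp4, retinol-binding protein, had a ratio of −2.88 and the resistin gene Retn of −2.69. Lep, leptin, was 28.7 and 181, and Plin1, which coats the fat droplet of adipocytes, 102 and 514. Of 30 fibroblast and matrix markers 28 were lower and none higher (median −1.63), against a wild-type median of −2.06. Col1a1, a collagen I chain, was 336 and 1377 (−2.03), and the fibroblast gene Dpt had the lowest ratio of the list (−2.25). This list held 0.624% of FPKM at parturition and 3.46% at day 6. Of 15 matrix metalloproteinase and inhibitor genes 6 were lower and none higher, with Mmp19 lowest at −1.60.

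Of 22 macrophage markers 15 were lower and 1 higher (median −1.17), and of 8 MHC class II genes 6 were lower. Of the same 8 genes, 6 were lower in wild type and 2 in BB. The whole MHC class II list summed to 856 scaled FPKM at parturition and 2133 at day 6 in AB. That day 6 sum was above every other day 6 column (779 to 1586). Some MHC genes outside that list went the other way, with H2-Ea-ps at 6.38, H2-K2 at 3.41 and H2-Q2 at 3.25. All of these stood below every other day 6 column in AB, and the cause was not tested. Within the lists, Folr2, a marker of resident macrophages, was 21.3 and 81.7 (−1.89), and H2-Aa, an MHC class II chain, 192 and 563 (−1.55). Cd14, a receptor for bacterial lipid that epithelial cells also express, was the higher macrophage marker (3.09). Nerve and Schwann cell genes were lower in 8 of 13 cases and higher in 1, Sox10 (1.79). Of 17 endothelial markers 2 were lower (median −0.33), with Vwf at −1.47. T cell markers had 1 of 6 lower. B and plasma cell markers had 1 higher, Igj (2.03), and 1 lower of 5. Mast cell markers had 1 higher and 3 lower of 11, and neutrophil markers 2 higher, Lcn2 among them, and 1 lower of 6. Erythrocyte markers had 1 higher and 1 lower of 3, and brown adipocyte markers 2 higher and 3 lower of 10. Among these, Tfrc, the transferrin receptor, was 38.9 and 5.50 (2.62), and Cox8b, a respiratory subunit of brown fat and muscle, 14.2 and 116 (−2.94). Of 3 skin keratinocyte markers 2 were higher, Dmkn (3.31) and Sbsn (1.85). The plot of list medians sets these side by side with BB and wild type.

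**Figure D4:**
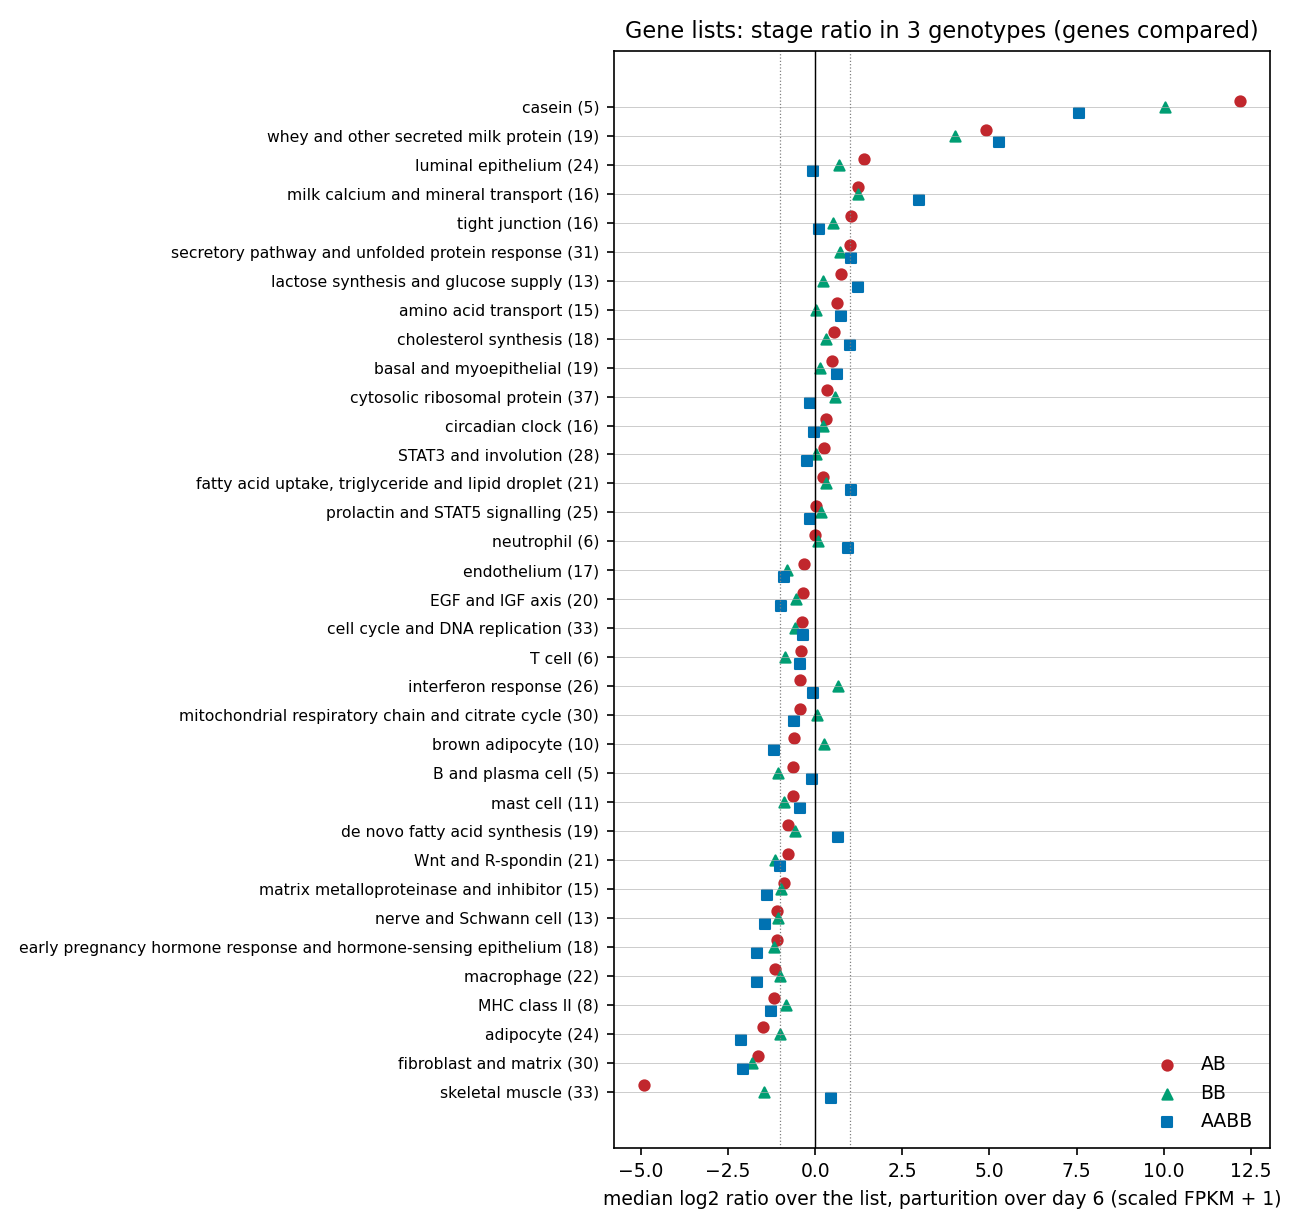
Median log2 ratio, parturition over day 6, of each gene list with at least 5 genes compared, in AB (circles), BB (triangles) and wild-type AABB (squares), with the number of genes compared in AB and dotted lines at 2-fold. Caseins lead in AB at 12.19 and skeletal muscle genes are lowest at −4.92, while luminal markers stand at 1.40 in AB and −0.08 in wild type.

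Set beside the other genotypes, the stage ratio in AB resembled that in BB more than that in Null. Across 12975 genes, the Pearson correlation of the AB ratio was 0.796 with BB, 0.642 with wild type and 0.0537 with Null. This is a description across genes, which are not independent replicates, and all columns share 1 scaling. Without the genes that stood apart in AB at day 6 and the muscle list, the values over 12884 genes were 0.830 with BB, 0.709 with wild type and 0.186 with Null. In wild type 1585 genes were higher (12.2% of 13033 compared) and 2161 lower (16.6%), or 824 and 3817 without scaling. In BB 817 were higher (6.33%) and 1204 lower (9.33%), and in Null 463 (3.52%) and 368 (2.79%). Of the 846 genes higher in AB, 535 were also higher in BB, 541 in wild type and 66 in Null. Of the 1299 lower in AB, 645 were also lower in BB, 788 in wild type and 90 in Null, while 174 were higher in Null, whose muscle list summed to 5687 at parturition and 898 at day 6. The AB ratio was at least 2-fold above the wild-type ratio for 1069 genes (8.24%) and below it for 1007 (7.76%), and without scaling for 2373 and 533. Against BB the counts were 302 (2.33%) and 418 (3.22%).

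Genes with characterised names farthest above the wild-type ratio were the 3 caseins Csn2, Csn1s2a and Csn1s1, followed by Atp6v1b1, Plb1 and Glycam1. Atp6v1b1, a subunit of the proton pump of acid-secreting cells, was 158 at parturition and 18.1 at day 6 in AB, against 7.02 and 40.2 in wild type. The ratios were 3.06 and −2.36, in opposite directions. The rise was not particular to AB, since the ratio was 3.51 in BB, 3.14 in A and 2.65 in B. Plb1, a phospholipase, was 17.0 and 2.15 in AB, against 0.453 and 7.03 in wild type. Its ratio was 2.51 in AB, 2.16 in BB, 1.77 in A and 2.17 in B. The 6 farthest below were muscle genes, Ckm, Tnnt3, Myh4, Tnnc2, Pvalb and Actn3. The plot of AB against wild-type ratios shows muscle genes far below the diagonal. In wild type 9 of the 33 were higher at parturition and none was lower, with Tnnt3 highest (1.69).

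**Figure D5:**
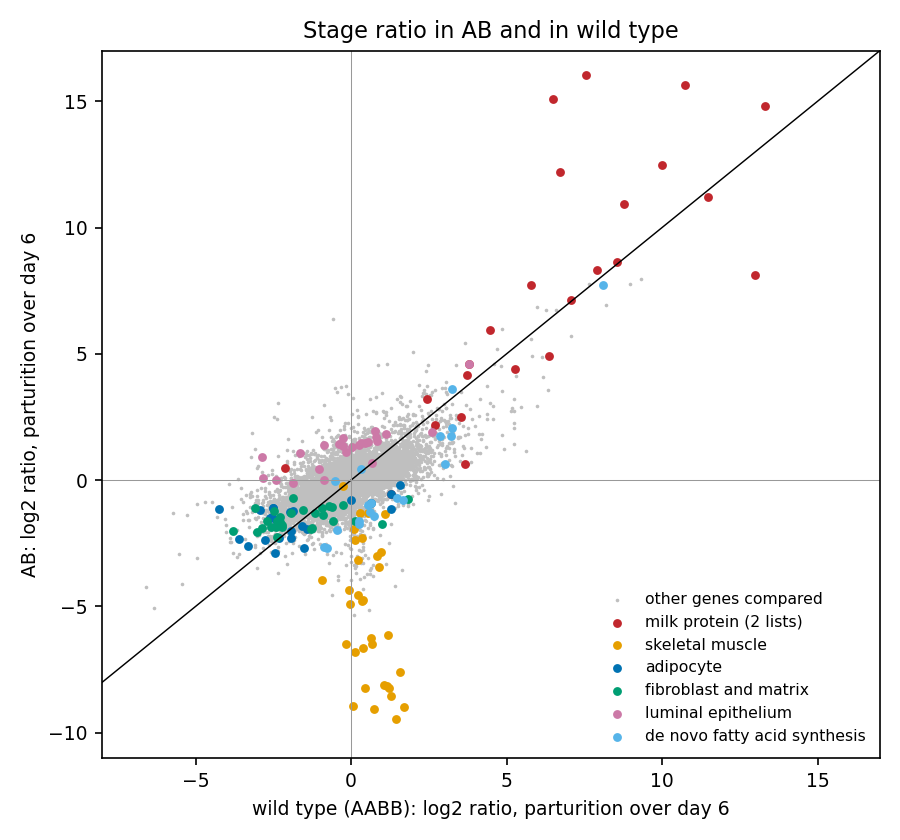
Log2 ratio of scaled FPKM + 1, parturition over day 6, in AB (vertical) and wild-type AABB (horizontal) for 12975 genes, with the line of equality. Most milk protein genes lie far from 0 in both, Csn2 at 15.09 in AB and 6.50 in wild type, and Ckm at −9.48 in AB and 1.43 in wild type.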

How the data were processed

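Mammary tissue of 6 genotypes was profiled at 2 stages, 31 samples in all. The submitters' processing notes name CASAVA, TopHat and the mouse build mm9. The quantifier and annotation are not given in the sources used here. The authors deposited FPKM per gene symbol in 2 tables, 1 column per genotype. These columns were taken as means, because from 67.0% to 68.1% of values end in 33, 66 or 67 in columns with 3 listed samples and under 2% in those with 2. The planned limma fits, replicate block and leave-one-out need a value per sample and were not run.

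All 12 columns were brought to 1 scale. Each was divided by its median ratio to the genes' geometric means, taken over the 10608 genes that reached 1 FPKM in every column. A constant of 1 was added before taking log2 ratios of parturition over day 6, and a gene was called at 2-fold. The calculation was tested on simulated data. The 37 gene lists and the comparison itself were chosen with earlier results of these data known. Named genes were Stat5a and Stat5b, all caseins, the 5 members of each list with the largest ratios, the 12 highest and 12 lowest characterised genes, the 10 with the most FPKM per AB column and the 6 at each end of the difference from wild type. Genes named for other reasons are marked, and some that this rule selects are not reported here. Alternatives were pseudocounts of 0.1 and 5, no filter, a 5 FPKM floor, 4 other scalings, and removal of the trend with transcript length and GC content (GENCODE M21, matched for 98.2% of symbols). Leaving out the genes that stood apart in AB at day 6, leaving out the muscle list in the correlations, and a floor on scaled FPKM were added after seeing the data. Promoters came from RefSeq by symbol. Scripts ran in Python 3.11.15 with pandas 2.3.3, numpy 2.4.6, statsmodels 0.14.6, scipy 1.17.1 and matplotlib 3.10.9.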

Additional observations from a re-analysis of the deposited data

How the results depend on the processing

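Of 193 named genes, 2049 of 2093 values kept direction and side of 2-fold, 27 dropped below it, 17 came past it, and 0 reversed. The 2-fold counts stayed within 1.5 times under every setting but a pseudocount of 5, with 487 higher and 634 lower. At 4-fold they were 115 and 87 with a pseudocount of 5, and 366 and 423 with 0.1. The pseudocount of 0.1 also gave medians of −1.21 for B and plasma cell, −1.29 for erythrocyte and −1.08 for Wnt genes, and 1721 and 558 genes with the AB stage ratio above that of wild type and BB. A pseudocount of 5 gave medians of −0.86 for hormone response, 0.91 for calcium transport, 0.77 for tight junction and −0.58 for nerve genes. With it the AB ratio was above and below the wild-type ratio for 437 and 514 genes, and the BB ratio for 79 and 181. With no filter the hormone response median was −0.98 and the keratinocyte median 0. With a 5 FPKM floor the medians were −1.54 for brown adipocyte and −1.23 for mast cell genes, the neutrophil median reversed to 1.29, and 278 genes were below the BB ratio. Without scaling the tight junction median was 0.95, and 2373 and 533 genes were above and below the wild-type ratio. The secretory median was 1.03 with the AB columns scaled alone, 1.11 with the sum outside milk and muscle genes, and 1.02 with the upper quartile. The sum outside milk and muscle genes gave −0.99 for hormone response and −0.98 for nerve genes, and 572 genes above the BB ratio, against 190 with the trend of length and GC content removed. The cause of these shifts was not tested. Leaving out the genes that stood apart in AB at day 6 changed no list median's side of 2-fold but moved the skeletal muscle median to −1.86. No paired analysis was possible because the columns are means over samples and carry no replicate numbers. For the same reason leaving out each replicate was not run, and the spread between mice and the read depth limit every value.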

Other observations

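Outside the gene lists, several secreted proteins and transporters were higher at parturition in AB, and all genes named in these paragraphs were chosen after their values were seen. Chrdl2, a secreted antagonist of bone morphogenetic proteins, was 123 scaled FPKM at parturition and 0.0757 at day 6, a log2 ratio of 6.84. The cholecystokinin gene Cck was 179 and 0.671 (6.75), and the folate receptor gene Folr1 was 270.1 and 1.56 (6.73). Among lower genes, the imprinted RNA H19 was 13.4 and 159.6 (−3.48), and Tmem45b was 21.3 and 189.9 (−3.10), against 4.32 and 163 in wild type.

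The stage ratio of some genes stood well above that in wild type. Foxi1, the transcription factor of acid-secreting epithelial cells, was 68.8 at parturition and 1.90 at day 6 in AB, against 6.94 and 2.59 in wild type, log2 ratios of 4.59 and 1.14. Chi3l1, a secreted chitinase-like protein, was 340.0 and 29.1 in AB, against 10.7 and 14.9 in wild type, log2 ratios of 3.50 and −0.45. The difference between genotypes was not tested, since the columns are means. Opposite directions at 2-fold or more were found for few of the 12975 genes compared. Of these, 21 genes were higher in AB and lower in wild type. A further 20 were lower in AB and higher in wild type, 9 of them muscle list members. Muscle genes outside the list were among the 20 as well. Myot was 17.8 in AB at day 6, against 0.145 to 1.54 in the other genotypes. Of the 21, 5 were higher in BB as well and 3 were lower. The 3 were Hal, Gm8909 and C530028O21Rik. Like Gm10653, also of the 21, they were at least 4-fold below every other day 6 column in AB. Their direction in AB therefore rests on that column. Igfbp5, an IGF-binding protein made by involuting glands, was 945 and 444 in AB, against 76.5 and 219 in wild type. Its log2 ratio was 1.09 in AB, 0.96 in BB, 2.36 in A and 1.87 in B. The aminopeptidase gene Anpep was 128 and 40.9 in AB, against 14.3 and 61.4 in wild type. Its log2 ratio was 1.62 in AB, 0.72 in BB, 2.17 in A and 1.85 in B. Of the 20, 9 were lower in BB as well and 1 was higher. Among the 20, Ace, angiotensin-converting enzyme, was 24.4 and 51.0 in AB, against 30.6 and 7.83 in wild type. Its log2 ratio was −1.03 in AB, −1.24 in BB and 1.84 in wild type.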
